A study of Saccharomyces cerevisiae with 12 samples.

Results

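The genes described here are the ribosome biogenesis factors of budding yeast whose standard names begin with UTP, NOP, NOC, RRP, NSA or RPF followed by a number. A match of the gene symbols to those 6 names found 60 of the 7112 features in the table of counts, namely 18 UTP, 18 RRP, 17 NOP, 3 NOC, 2 NSA and 2 RPF genes. No expression value entered the choice, and factors of the same pathway that carry other names were treated as a separate list. RNAseq had been performed on 12 cultures in 4 groups of 3 biological replicates. WT (strain CGY41.30) and *sis2*Δ (strain CGY41.34, with *SIS2* replaced by kanMX) were each grown in medium with 7.35 mM KCl and in medium with 0.5 mM KCl. Both strains were prototrophic *MATa* haploids, and each genotype was represented by 1 strain. All cultures came from an overnight culture in the higher potassium concentration and were kept in exponential growth in the experimental medium before harvest. With ammonium as nitrogen source, the paper reports that doubling time rose strongly as external potassium was lowered. Potassium concentration and growth rate cannot be told apart in these 12 cultures. *SIS2* encodes an inhibitory subunit of the protein phosphatase Ppz1, which restrains potassium uptake.

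Ribosome biogenesis begins in the nucleolus, where RNA polymerase I makes a long precursor of the rRNAs. The UTP proteins and their partners assemble on the 5′ part of that precursor as the small subunit (SSU) processome, together with the U3 snoRNP, and cut out and fold the 18S rRNA. A separate set of NOP, NOC, NSA, RPF and RRP proteins folds the 25S and 5.8S rRNAs into the 60S subunit, and the exosome, a 3′ to 5′ exonuclease, trims the ends. The genes of this pathway are known in yeast as a regulon that responds to nutrients and stress through TORC1, Sch9 and the transcription factor Sfp1. By known role, the 60 genes were divided into 6 members of the t-UTP (UtpA) subcomplex, 4 of UtpB, 3 of UtpC and its partner, 5 snoRNP proteins, 15 other factors of the small subunit, 20 factors of the 60S subunit and 7 exosome subunits.

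All 60 genes were found in the R64 annotation under the same symbol. They lay on 14 chromosomes, had no intron in the coding sequence and overlapped no other annotated gene on either strand. Their proteins ranged from 58 residues (*NOP10*) to 2493 residues (*UTP20*), with a median of 473.5. Many genes of this regulon carry 2 short sequences before the start codon. PAC is bound by the repressors Dot6 and Tod6, and RRPE by the repressor Stb3. The core of PAC, searched here as CGATGAG on both strands of the 300 bases before the start codon in R64, was present in 35 of the 60 genes (58.3%) and in 414 of 5895 protein-coding genes tested (7.02%). The core of RRPE, searched as AAAAATTTT on both strands, was present in 31 of the 60 (51.7%) and in 7.45% of all. These cores do not overlap each other, and both were present in 19 of the 60 (31.7%), against 2.27% of all. The shorter core GATGAG, which is contained in the PAC core, was found in 49 of the 60 (81.7%) against 18.8%. The PAC cores lay between 58 and 293 bases before the start codon with a median of 120, and the RRPE cores between 34 and 226 bases with a median of 134. A match shows only that these letters are present in the window.

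Stretches of 60 bases from 6 of these upstream regions show how the cores are placed in genes that differ in their response to potassium, which is given below. They come from the RefSeq copy of R64 and are written 5′ to 3′ on the strand of the gene. Capitals mark the cores, and CTCATCG and AAAATTTTT are the same cores read on the other strand. *UTP20* (chrII:227431-227490, plus strand), *NOP14* (chrIV:190698-190757, minus strand), *NOP7* (chrVII:695255-695314, plus strand) and *RRP8* (chrIV:611933-611992, plus strand) were lower in low potassium in both strains. *NSA2* (chrV:414287-414346, minus strand) and *UTP25* (chrIX:193276-193335, minus strand) passed the test in neither strain.
UTP20: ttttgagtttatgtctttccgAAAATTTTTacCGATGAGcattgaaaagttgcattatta
NOP14: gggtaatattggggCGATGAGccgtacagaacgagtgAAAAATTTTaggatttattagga
NOP7: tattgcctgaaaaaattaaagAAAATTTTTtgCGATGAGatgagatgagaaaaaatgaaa
RRP8: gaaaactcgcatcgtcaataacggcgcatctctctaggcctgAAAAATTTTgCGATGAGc
NSA2: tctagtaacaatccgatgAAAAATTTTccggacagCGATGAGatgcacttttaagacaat
UTP25: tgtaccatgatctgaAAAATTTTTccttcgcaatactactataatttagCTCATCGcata

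The cores were 2 bases apart in *UTP20* and *NOP7*, 1 base apart in *RRP8*, 8 in *NSA2*, 16 in *NOP14* and 25 in *UTP25*. *UTP25* was the only one of the 6 in which the PAC core was on the opposite strand. A pair of cores at short distance was thus present both in genes that fell and in genes that did not pass the test.

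The libraries held between 35451323 and 46543107 counts, and the 60 genes made up 0.638% to 0.875% of them. The lowest count of any of the 60 genes in a library was 1003 and the highest 68485, so that all 60 passed the filter on low counts along with 6631 other genes. *SIS2* had 3120 to 3808 counts in the 6 WT libraries and 40 to 88 in the 6 *sis2*Δ libraries. The low counts left in *sis2*Δ were not traced to a source. The *MATa* markers *MFA1*, *MFA2*, *STE2*, *STE6*, *BAR1* and *AGA2* had 4216 to 34902 counts, whereas the markers of the other mating type had 12 to 1904. Values are given as CPM (counts scaled to the same TMM-adjusted library size), which are shares of the mRNA of a culture. A change of a transcript within every cell and a change in the mix of cells cannot be told apart in such data.

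Per kilobase of coding sequence, the level of the 60 genes spanned a wide range. *NOP1*, which encodes fibrillarin, the methyltransferase of the box C/D snoRNPs, was highest at 1312 CPM per kilobase (mean of 12 libraries). *NOP10*, a small protein of the box H/ACA snoRNPs, followed at 1048, and the box C/D core proteins *NOP56* and *NOP58* stood at 279.9 and 232. The lowest were *UTP20*, a large scaffold of the SSU processome, at 14.8, *UTP10* of the t-UTP subcomplex at 27.1 and *NOP9* at 31.8 CPM per kilobase.

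The first question was how potassium limitation in WT changed these transcripts. In 0.5 mM KCl, 42 of the 60 genes were lower than in 7.35 mM KCl and 1 was higher (edgeR quasi-likelihood test, adjusted p under 0.05 over 6691 genes). Of all genes tested, 23.2% were called lower and 24.1% higher. The median log2 fold change of the 60 genes was -0.24, so that the median gene fell by 15.1%, whereas the median of all genes was -0.0012. In 47 of the 60 genes every library in 0.5 mM KCl was below every library in 7.35 mM KCl, which held for 28.4% of all genes tested. The summed level of the 60 genes was 8311, 7978 and 8649 CPM in 7.35 mM KCl and 6881, 6925 and 6686 CPM in 0.5 mM KCl, so that the groups did not overlap. Of the 60 log2 fold changes 57 were below 0, with quartiles of -0.35 and -0.14. In what follows, a log2 fold change is given with its SE (n = 3 libraries per group) and the adjusted p of the edgeR test.

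**Figure D1:**
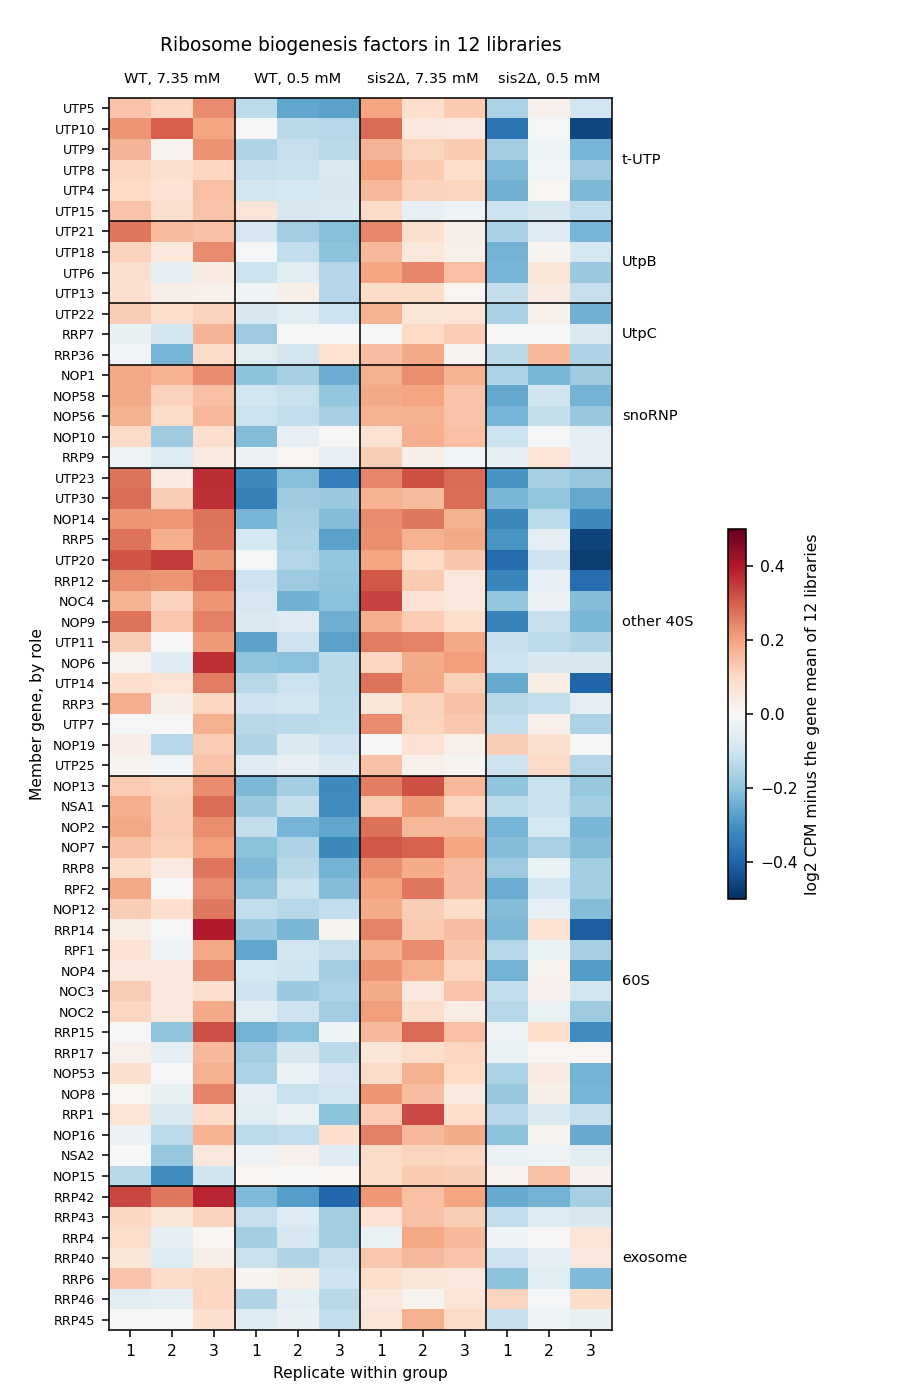
Level of each of the 60 genes (rows, grouped by role and ordered by the change in WT) in each of the 12 libraries (columns), as log2 CPM minus the mean of that gene over the 12 libraries. Rows are mostly red in the 6 libraries in 7.35 mM KCl and blue in the 6 libraries in 0.5 mM KCl, with *NOP15*, *NSA2* and *RRP36* among the exceptions and with replicate 2 of *sis2*Δ in 0.5 mM KCl paler than its group.

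Among the factors of the small subunit outside the named subcomplexes, 13 of 15 were lower in WT, and their median log2 fold change was -0.35. *UTP23*, which is required for the release of the snR30 snoRNA, was the lowest of this group. Its level was 63.7, 54.2 and 68.1 CPM in 7.35 mM KCl and 42.3, 45.5 and 41.6 CPM in 0.5 mM KCl. The groups did not overlap, and the log2 fold change was -0.52 ± 0.07 SE, adjusted p = 2.82e-06. *UTP30*, which is related to a ribosomal protein of the large subunit, stood at 39.5, 35.5 and 41.9 CPM in 7.35 mM KCl and at 25.7, 28.8 and 28.7 CPM in 0.5 mM KCl. All 3 libraries in low potassium were again below those in 7.35 mM KCl (-0.49 ± 0.07 SE, adjusted p = 3.07e-06). *NOP14*, which forms a complex with *NOC4* in the early 40S particle, was at 178, 177 and 184 CPM and at 130.0, 136 and 131 CPM, respectively. It fell by 26.3% (-0.44 ± 0.06 SE, adjusted p = 2.7e-06), with close replicates in both groups. *UTP20* was at 135, 139 and 126 CPM in 7.35 mM KCl and at 108, 98.4 and 95.4 CPM in 0.5 mM KCl, without overlap (-0.41 ± 0.08 SE, adjusted p = 0.000156). The other large scaffold proteins *RRP5* and *RRP12* changed by -0.41 and -0.41. *UTP14*, the activator of the helicase that removes U3, changed by -0.27. The members of this group that did not pass the test were *UTP25* and *NOP19*. *UTP25* was at 77.8, 76.2 and 85.0 CPM in 7.35 mM KCl and at 73.5, 74.7 and 73.3 CPM in 0.5 mM KCl, and its groups did not overlap although the difference of -0.11 ± 0.07 SE, adjusted p = 0.175 missed the threshold. *NOP19* was at 30.8, 27.3 and 32.9 CPM and 27.2, 28.7 and 28.0 CPM, and replicate 2 in 7.35 mM KCl lay within the range of the low-potassium group (-0.12 ± 0.06 SE, adjusted p = 0.142).

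All 6 members of the t-UTP subcomplex, which joins the nascent rRNA first, were lower in WT, with a median of -0.24. *UTP5* had the largest decrease, from 124, 121 and 133 CPM to 103, 94.0 and 93.4 CPM (-0.38 ± 0.06 SE, adjusted p = 2.97e-05). *UTP15* had the smallest, from 93.8, 90.0 and 94.0 CPM to 89.0, 80.4 and 80.9 CPM, and these groups lay close to each other (-0.15 ± 0.06 SE, adjusted p = 0.0352). *UTP10* was at 166, 175 and 163 CPM and at 143, 129 and 129 CPM, without overlap (-0.33 ± 0.09 SE, adjusted p = 0.00409). Of the UtpB subcomplex, *UTP21* and *UTP18* were lower, and *UTP6* and *UTP13* did not pass the test. *UTP21* fell from 134, 124 and 123 CPM to 105, 98.5 and 95.8 CPM (-0.35 ± 0.06 SE, adjusted p = 0.000143). *UTP13* was at 108, 105 and 104 CPM and at 101, 104 and 92.6 CPM, and the highest library in low potassium lay just above the lowest in 7.35 mM KCl (-0.09 ± 0.06 SE, adjusted p = 0.232). *UTP6* was at 51.1, 46.7 and 49.7 CPM and 44.9, 46.5 and 43.6 CPM, with replicate 2 of each group nearly equal (-0.13 ± 0.07 SE, adjusted p = 0.123). In the group of UtpC and its partner, only *UTP22* passed the test. It fell from 148, 145 and 147 CPM to 129, 130.5 and 126 CPM (-0.19 ± 0.06 SE, adjusted p = 0.0153). *RRP36* was at 34.1, 29.3 and 36.8 CPM and at 33.1, 32.3 and 36.3 CPM, with fully overlapping groups (0.02 ± 0.09 SE, adjusted p = 0.856). The share of all genes called lower in WT was 23.2%. With 4 and 3 genes, the counts of UtpB and UtpC are not clearly apart from it.

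Of the snoRNP proteins, *NOP1*, *NOP56* and *NOP58* of the box C/D particles were lower, and *NOP10* and *RRP9* did not pass the test. *NOP1* was at 1457, 1443 and 1507 CPM in 7.35 mM KCl and at 1111, 1141 and 1076 CPM in 0.5 mM KCl. No library overlapped, and the level fell by 24.5% (-0.41 ± 0.06 SE, adjusted p = 6.25e-06). *RRP9*, the protein specific to the U3 snoRNP, was at 83.0, 80.7 and 87.5 CPM and 82.9, 85.0 and 82.1 CPM (-0.01 ± 0.06 SE, adjusted p = 0.936). Its groups overlapped and its means were nearly equal.

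Of the 20 factors of the 60S subunit, 14 were lower and 1 was higher, with a median of -0.24. *NOP13*, an RNA-binding nucleolar protein, had the largest decrease, from 123, 122 and 133 CPM to 96.4, 99.7 and 90.3 CPM (-0.40 ± 0.06 SE, adjusted p = 1.11e-05). *NOP7*, which forms the PeBoW complex with Erb1 and Ytm1, fell from 375, 368 and 392 CPM to 294, 305 and 271 CPM (-0.38 ± 0.06 SE, adjusted p = 2.34e-05). Both genes showed wide gaps between the groups. The rRNA methyltransferases *NOP2* and *RRP8* changed by -0.39 and -0.33, and *RPF2*, which brings in the 5S rRNA, by -0.32. *NOP15*, which binds the second internal transcribed spacer of the precursor, was the only member called higher in WT. It was at 101, 89.6 and 104 CPM in 7.35 mM KCl and at 112, 111 and 112 CPM in 0.5 mM KCl, an increase of 13.7% (0.18 ± 0.06 SE, adjusted p = 0.0142). The groups did not overlap, but replicate 2 in 7.35 mM KCl lay well below the other two, and without it the log2 fold change was 0.13 and no longer passed the threshold. *NSA2* was at 109.8, 96.2 and 114 CPM and 108, 111 and 105 CPM, and *NOP16* was at 89.7, 83.7 and 103 CPM and 83.6, 84.1 and 97.1 CPM. Neither gene passed the test in WT (0.02 ± 0.06 SE, adjusted p = 0.809 for *NSA2*, and -0.06 ± 0.08 SE, adjusted p = 0.54 for *NOP16*), and both pairs of groups overlapped.

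Of the 7 exosome subunits, 3 were lower in WT, with a median of -0.14. *RRP42*, a subunit of the hexameric ring, had the lowest log2 fold change of all 60 genes. Its level was 66.9, 63.7 and 69.0 CPM in 7.35 mM KCl and 45.6, 43.8 and 40.4 CPM in 0.5 mM KCl. It fell by 35.0%, more than the spread within each group (-0.62 ± 0.06 SE, adjusted p = 1.5e-08). The other ring subunits changed less. *RRP43* was at -0.21 and passed the test, *RRP46* stood at 37.4, 37.6 and 41.9 CPM and 35.1, 37.7 and 35.4 CPM (-0.11 ± 0.06 SE, adjusted p = 0.12), and *RRP45* at 64.4, 64.1 and 68.1 CPM and 61.6, 62.8 and 59.1 CPM (-0.10 ± 0.06 SE, adjusted p = 0.145). *RRP45* and *RRP46* did not pass. The cap subunit *RRP4* fell from 59.5, 54.2 and 56.3 CPM to 49.7, 52.7 and 49.7 CPM, close to the threshold (-0.16 ± 0.06 SE, adjusted p = 0.0405). *RRP6*, the exonuclease specific to the nuclear exosome, was at 83.4, 80.7 and 81.2 CPM and at 76.2, 77.0 and 70.4 CPM, without overlap (-0.13 ± 0.06 SE, adjusted p = 0.0567). With the batch of each library as a replicate block, the adjusted p of *RRP6* was 0.0439 and that of the cap subunit *RRP40* 0.0476, so that both then passed, against 0.0512 for *RRP40* without the block. Of 11 further exosome subunits and cofactors, 4 were lower and 0 higher in WT, with a median of -0.09, beside 23.2% of all genes called lower. Among the 4 were *MTR3* at -0.45 and the helicase *MTR4* at -0.38, whereas *SKI6* was the highest of the 11 at 0.09. With so few genes, neither 4 of 11 nor 3 of 7 is clearly apart from the share of all genes.

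**Figure D2:**
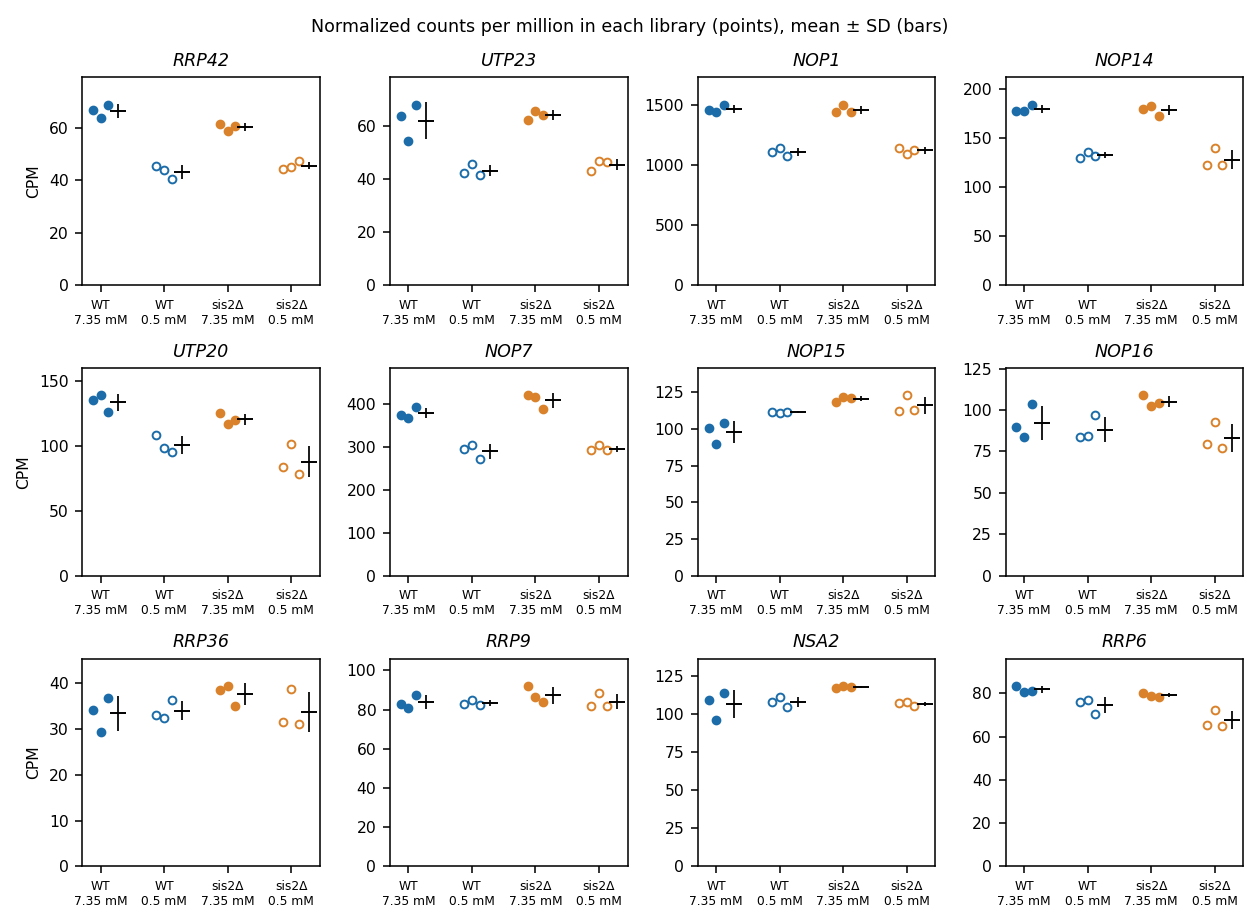
CPM of 12 of the genes in each library (points, filled for 7.35 mM KCl and open for 0.5 mM KCl, blue for WT and orange for *sis2*Δ), with mean and SD (bars, n = 3), on axes that start at 0. *RRP42*, *UTP23*, *NOP1*, *NOP14*, *UTP20* and *NOP7* separate by potassium in both strains, *NOP15* is lowest in WT in 7.35 mM KCl, and *RRP9* is nearly level.

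The same comparison was made in *sis2*Δ. In 0.5 mM KCl, 48 of the 60 genes were lower and 0 were higher (0 at an unadjusted p under 0.05, and 0 by DESeq2), and 21.7% of all genes were called lower and 24.2% higher. The median log2 fold change was -0.28, so that the median gene fell by 17.6%. All 3 libraries in 0.5 mM KCl were below all 3 in 7.35 mM KCl for 51 of the 60 genes, against 25.3% of all genes tested. The summed level was 8589, 8498 and 8260 CPM in 7.35 mM KCl and 6650, 7183 and 6594 CPM in 0.5 mM KCl. In the latter group replicate 2 was the highest. With replicate 2 left out, the median was -0.34 and 51 genes were lower.

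By role, 13 of 15 other small subunit factors, 5 of 6 t-UTP genes and 3 of 4 UtpB genes were lower in *sis2*Δ. So were 1 of 3 UtpC genes, 4 of 5 snoRNP genes, 17 of 20 60S factors and 5 of 7 exosome subunits. The share of all genes called lower was 21.7%, and 1 of 3 is not clearly apart from it. *UTP23* again had the lowest value, with 62.4, 65.8 and 64.1 CPM in 7.35 mM KCl and 43.0, 46.9 and 46.2 CPM in 0.5 mM KCl (-0.50 ± 0.07 SE, adjusted p = 7.05e-06). *NOP14* fell from 179.8, 183 and 173 CPM to 122, 139.6 and 123 CPM (-0.48 ± 0.06 SE, adjusted p = 1.17e-06). *NOP7* fell from 419.8, 416 and 389 CPM to 291, 303 and 292 CPM (-0.47 ± 0.06 SE, adjusted p = 2.59e-06). In these genes the groups lay far apart, with the highest low-potassium value in replicate 2 each time. *UTP20* fell from 125, 117 and 120.0 CPM to 83.5, 101 and 78.4 CPM (-0.46 ± 0.08 SE, adjusted p = 5.33e-05). *UTP10* fell from 173, 147 and 147 CPM to 110.4, 141 and 104 CPM (-0.39 ± 0.09 SE, adjusted p = 0.00104). Both large genes had wide spread in 0.5 mM KCl, since replicate 2 was well above the other two. *UTP30* fell from 36.7, 36.4 and 39.5 CPM to 27.8, 28.4 and 27.3 CPM (-0.43 ± 0.07 SE, adjusted p = 2.05e-05), and *NOP13* from 135, 141 and 126 CPM to 97.9, 104 and 98.6 CPM (-0.42 ± 0.06 SE, adjusted p = 7.99e-06). The fibrillarin gene *NOP1* fell from 1449, 1502 and 1442 CPM to 1147, 1093 and 1129.9 CPM (-0.38 ± 0.06 SE, adjusted p = 1.56e-05). None of these groups overlapped.

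Further decreases in *sis2*Δ were measured for other genes whose values were followed in every library. *RRP42* fell from 61.6, 58.8 and 60.9 CPM to 44.5, 45.1 and 47.3 CPM (-0.41 ± 0.06 SE, adjusted p = 8.17e-06). *UTP5* fell from 129, 119 and 123 CPM to 101, 114 and 105 CPM (-0.21 ± 0.06 SE, adjusted p = 0.00705). *UTP21* fell from 131, 118 and 113 CPM to 99.4, 106 and 94.6 CPM (-0.27 ± 0.06 SE, adjusted p = 0.00172). In each of them the groups were apart. *UTP22* fell from 154, 142 and 143 CPM to 122, 139 and 115 CPM (-0.22 ± 0.06 SE, adjusted p = 0.00588). *UTP6* fell from 55.5, 57.3 and 53.7 CPM to 41.1, 50.4 and 42.5 CPM (-0.31 ± 0.07 SE, adjusted p = 0.000713). *NOP16* fell from 109, 102 and 104 CPM to 79.5, 92.6 and 76.9 CPM (-0.34 ± 0.08 SE, adjusted p = 0.00146). *UTP6* and *NOP16* had not passed the test in WT, and whether the strains differ in them is tested below. *RRP6* fell from 80.2, 78.7 and 78.4 CPM to 65.5, 72.3 and 64.8 CPM (-0.23 ± 0.06 SE, adjusted p = 0.00261), and *RRP45* from 67.5, 73.0 and 68.9 CPM to 59.5, 63.4 and 62.8 CPM (-0.17 ± 0.06 SE, adjusted p = 0.0151). Both exosome genes had separate groups.

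The genes named above that did not pass in *sis2*Δ were *NSA2*, *RRP4*, *UTP15*, *UTP25*, *UTP13*, *RRP36*, *RRP9*, *NOP15*, *RRP46* and *NOP19*. *NSA2*, a factor of late 60S steps, was at 117, 119 and 118 CPM in 7.35 mM KCl and at 107, 108 and 106 CPM in 0.5 mM KCl. Its groups did not overlap, yet the adjusted p lay just above the threshold (-0.14 ± 0.06 SE, adjusted p = 0.0531), and it was called with DESeq2 (adjusted p = 0.0286) and under each of the other scalings tried, at 0.0368 to 0.0425. *NOP15* was at 119, 122 and 121 CPM and 112, 123 and 113 CPM (-0.05 ± 0.06 SE, adjusted p = 0.476). *RRP46* was at 40.5, 39.4 and 40.7 CPM and 42.1, 38.8 and 41.5 CPM (0.02 ± 0.06 SE, adjusted p = 0.793). *NOP19* was at 30.3, 31.7 and 30.7 CPM and 32.8, 31.9 and 30.2 CPM (0.03 ± 0.06 SE, adjusted p = 0.7). In *NOP15*, *RRP46* and *NOP19* the groups overlapped. *RRP4* was at 54.7, 63.96 and 62.6 CPM and 55.2, 56.2 and 58.8 CPM (-0.09 ± 0.06 SE, adjusted p = 0.255), and *UTP15* at 91.0, 82.8 and 83.7 CPM and 79.1, 80.4 and 78.2 CPM (-0.12 ± 0.06 SE, adjusted p = 0.105). *RRP36* was at 38.4, 39.3 and 34.9 CPM and 31.4, 38.6 and 30.9 CPM (-0.16 ± 0.09 SE, adjusted p = 0.134). *RRP9* was at 92.0, 86.2 and 83.7 CPM and 81.6, 88.3 and 81.9 CPM (-0.06 ± 0.06 SE, adjusted p = 0.428). Of these, *UTP15* was the one without overlap between its groups. *UTP25* was at 85.2, 78.2 and 77.7 CPM and 71.6, 82.2 and 69.6 CPM (-0.11 ± 0.07 SE, adjusted p = 0.174), and *UTP13* at 109, 109 and 103 CPM and 94.4, 105 and 94.6 CPM (-0.13 ± 0.06 SE, adjusted p = 0.0893). Replicate 2 in 0.5 mM KCl was the highest of its group in both genes, and without it *UTP25*, *UTP13* and *RRP36* passed the threshold.

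**Figure D3:**
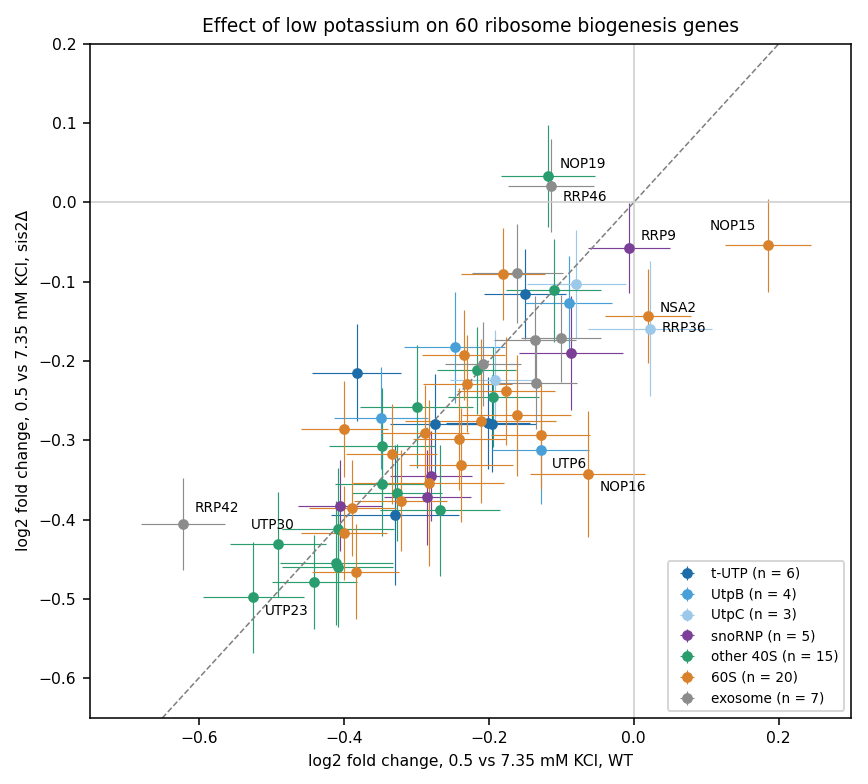
Log2 fold change of each of the 60 genes in 0.5 against 7.35 mM KCl in WT (x axis) and in *sis2*Δ (y axis), colored by role, with bars of 1 SE and a dashed line of equality. In all, 39 genes were called lower in both strains. *RRP42* lies above the line, *NOP16* and *NOP15* lie below it.

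Of the 60 genes, 39 were lower in both strains, 3 passed in WT alone (*RRP4*, *RRP17* and *UTP15*), 9 in *sis2*Δ alone and 9 in neither. WT and *sis2*Δ share no library in these comparisons. Across the 60 genes, the log2 fold changes in the strains had a Pearson r of 0.78, as a description over genes of the same 12 libraries, and across all 6691 genes tested r was 0.85. The interaction, which is the effect of *SIS2* deletion in 0.5 mM KCl minus that in 7.35 mM KCl, tests the difference between the strains. None of the 60 genes passed it in edgeR (0 higher and 0 lower, against 1.7% and 1.03% of all genes). At an unadjusted p under 0.05 there were 1 higher and 2 lower, and DESeq2 called 0. The largest values were *NOP16* at -0.28 ± 0.11 SE, adjusted p = 0.229, *NOP15* at -0.24 ± 0.08 SE, adjusted p = 0.149 and *RRP42* at 0.22 ± 0.08 SE, adjusted p = 0.189. The calls made in 1 strain alone are therefore not shown to differ between the strains. With replicate 2 of *sis2*Δ in 0.5 mM KCl left out, *NOP15* (-0.29, adjusted p = 0.0426) and *UTP6* (-0.29, adjusted p = 0.0421) passed.

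The effect of *SIS2* deletion was examined at each potassium concentration. In 7.35 mM KCl, 1 of the 60 genes, *NOP15*, was higher in *sis2*Δ than in WT and 0 were lower (6 higher and 1 lower at an unadjusted p under 0.05 in edgeR, and 0 lower by DESeq2), against 6.38% and 7.04% of all genes tested. The median log2 fold change was 0.03. *NOP15* stood at 101, 89.6 and 104 CPM in WT and at 119, 122 and 121 CPM in *sis2*Δ, so that no library overlapped, and the log2 fold change was 0.30 ± 0.06 SE, adjusted p = 0.00182. This call held under each of the 20 alternatives that refitted the data. The next highest were *NOP16* (0.19 ± 0.08 SE, adjusted p = 0.119), *UTP6* (0.17 ± 0.07 SE, adjusted p = 0.0888) and *RRP36* (0.17 ± 0.09 SE, adjusted p = 0.201). The lowest were *UTP20* (-0.15 ± 0.08 SE, adjusted p = 0.206) and *RRP42* (-0.14 ± 0.06 SE, adjusted p = 0.112). Replicate 3 of WT in 7.35 mM KCl had the highest summed level of these genes in its group. Without it, 5 genes were called higher, *NOP15* and also *NOP6*, *NOP16*, *NSA2* and *RRP15*. Within the batches 1, 2 and 3, the median difference of the 60 genes was 0.06, 0.09 and -0.07, so that the sign was not the same in all batches.

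In 0.5 mM KCl, 0 of the 60 genes were higher and 0 were lower in *sis2*Δ (5 higher and 2 lower at an unadjusted p under 0.05 in edgeR, and 0 by DESeq2), against 1.2% and 0.583% of all genes. The median log2 fold change was 0.0058. The lowest value was that of *UTP20*, at 108, 98.4 and 95.4 CPM in WT and 83.5, 101 and 78.4 CPM in *sis2*Δ (-0.20 ± 0.08 SE, adjusted p = 0.222). *UTP10* (-0.17 ± 0.09 SE, adjusted p = 0.367) and *RRP6* (-0.14 ± 0.06 SE, adjusted p = 0.254) followed, and the highest were *RRP46* (0.18 ± 0.06 SE, adjusted p = 0.152), *NOP19* (0.18 ± 0.06 SE, adjusted p = 0.195) and *RRP4* (0.16 ± 0.06 SE, adjusted p = 0.227). When replicate 2 of *sis2*Δ in 0.5 mM KCl was left out, *UTP20* (-0.31, adjusted p = 0.00800), *UTP10* (-0.32, adjusted p = 0.0157) and *RRP6* (-0.19, adjusted p = 0.0421) were called lower and *RRP46* (0.22, adjusted p = 0.0407) higher. The medians within batches 1, 2 and 3 were -0.04, 0.09 and -0.01.

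**Figure D4:**
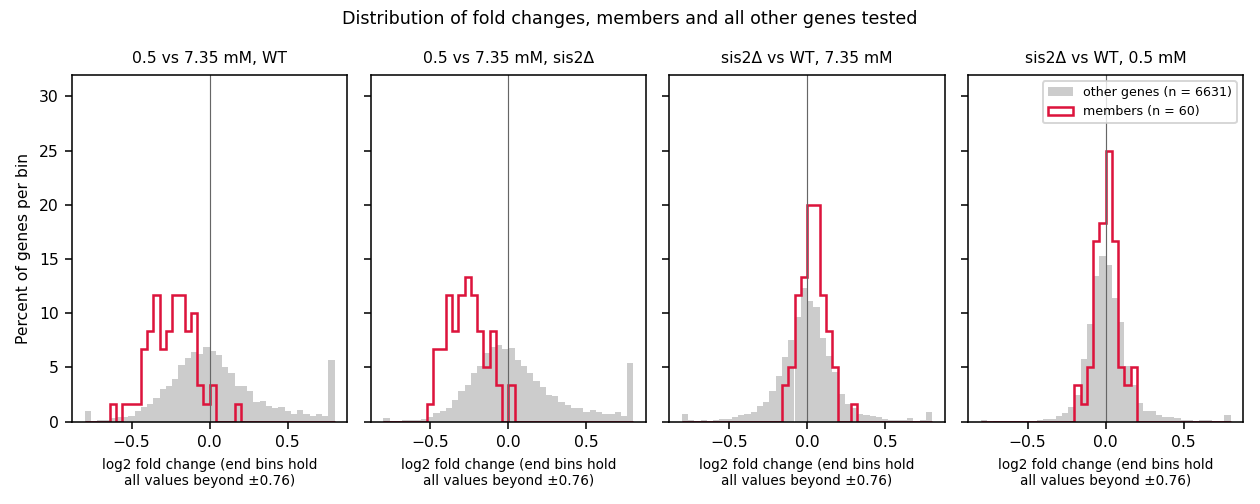
Distribution of log2 fold changes (x axis, bins of equal width, with all more extreme values in the end bins) for the 60 genes (red outline) and the 6631 other genes tested (gray), as percent of genes per bin (y axis), in 4 comparisons. The red outline lies to the left of 0 in the 2 comparisons of potassium and around 0 in the 2 comparisons of strain.

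The comparisons of potassium were also examined within batches, which the labels number like the replicates. In WT the median of the 60 genes was -0.22, -0.15 and -0.34 in batches 1, 2 and 3, with 59, 50 and 59 genes below 0. In *sis2*Δ it was -0.36, -0.16 and -0.30, with 57, 56 and 59 genes below 0. Batch 2 had the smallest change in both strains. Long genes tended to have lower values, with a Pearson r of -0.31 in WT and -0.35 in *sis2*Δ between the log2 fold change and the log2 coding length of the 60 genes. With the log2 CPM per kilobase, r was 0.05 and -0.06. These are descriptions over 60 genes of the same libraries.

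The changes were also listed by the promoter cores described above, as a description without a test. In WT the median log2 fold change was -0.32 for the 19 genes with both cores, -0.24 for the 12 with RRPE alone, -0.20 for the 16 with PAC alone and -0.19 for the 13 with neither. In *sis2*Δ the medians were -0.32, -0.28, -0.25 and -0.19 in the same order. The ranges overlapped widely, since *RRP42* and *UTP30* had neither core and were among the lowest in WT, and *NSA2* had both. Outside the 60 genes, 115 genes had both cores, and their median was -0.24 in WT and -0.25 in *sis2*Δ, whereas the 5720 others had a median near 0. The 115 were not all from outside the pathway. They included 37 other ribosome biogenesis factors and 4 genes of RNA polymerase I and its factors. Among the 91 other ribosome biogenesis factors described below, the order was the reverse. The 37 with both cores had a median of -0.27 in WT and -0.26 in *sis2*Δ, and the 54 without both had -0.32 and -0.33.

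**Figure D5:**
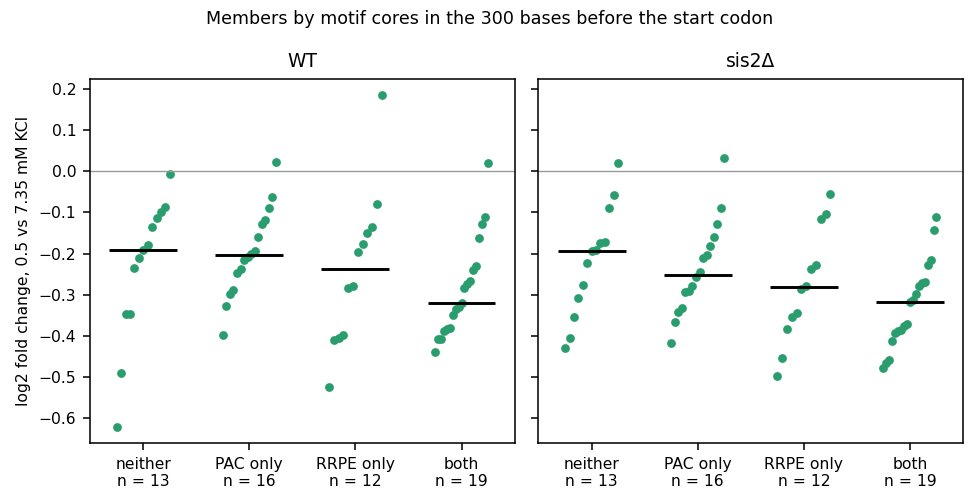
Log2 fold change in 0.5 against 7.35 mM KCl (y axis) of the 60 genes divided by the motif cores found in the 300 bases before the start codon (x axis), in WT and *sis2*Δ, with the median of each class as a line. Medians run from -0.19 with neither core to -0.32 with both, in each strain, and the classes overlap.

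The rest of the pathway was examined in lists made from known roles, written with earlier results of these data known. Of 91 other ribosome biogenesis factors found in the table, 73 were lower and 0 higher in WT in 0.5 mM KCl, with a median of -0.29, while 75 were lower and 0 higher in *sis2*Δ (median -0.29). In WT the lowest were *DBP2*, an RNA helicase, at -0.91 and *SDA1*, a factor of 60S maturation, at -0.60. Of the 16 genes of RNA polymerase I and its factors, 11 were lower in WT and 0 higher, and 7 were lower and 2 higher in *sis2*Δ. The large subunits *RPA190* (-0.37 in WT and -0.40 in *sis2*Δ) and *RPA135* (-0.42 and -0.36) were among the lowest. Of the 137 cytosolic ribosomal protein genes, 28 were lower and 4 higher in WT, with a median of -0.09, while 18 were lower and 5 higher in *sis2*Δ (median -0.09). Their shares of lower calls lay below those of all genes tested, which were 23.2% in WT and 21.7% in *sis2*Δ. Most of the 137 were nevertheless slightly below 0, with 109 in WT and 120 in *sis2*Δ. Of all 6691 genes tested, 3364 and 3323 were below 0. *RPS26B* was the lowest in both strains (-0.39 and -0.42) and *RPS9A* the highest (1.01 and 0.45). Ribosomal protein genes come largely in near-identical pairs, between which reads can be divided, so single paralogs are uncertain. The PAC core was present before 59 of the 91 other factors (64.8%) and before 1 of the 137 ribosomal protein genes (0.730%).

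Of 13 regulators of these genes, 7 were lower in WT in 0.5 mM KCl and 0 higher, and in *sis2*Δ 4 were lower and 1 higher, beside 23.2% and 21.7% of all genes called lower. With 13 genes, the count in *sis2*Δ is near that background. *TOD6*, the gene of a repressor that binds PAC, was lower in both strains, at -0.45 and -0.29. *DOT6*, its paralog, was at 0.14 in WT, which did not pass, and at 0.27 in *sis2*Δ, which did. In 7.35 mM KCl, 4 of the 13 were lower in *sis2*Δ than in WT and 0 higher, beside 7.04% of all genes called lower, and 3 of them were *CRF1*, a corepressor of ribosomal protein genes (-0.40, adjusted p = 0.00202), the kinase gene *SCH9* (-0.33, adjusted p = 0.0321) and *SFP1*, the activator of ribosome biogenesis genes (-0.31, adjusted p = 0.00507). The 60 genes themselves had a median of 0.03 in that comparison.

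Genes induced by stress moved the other way in low potassium. Of 20 such genes, 17 were higher and 1 lower in WT, beside 24.1% of all genes called higher. In *sis2*Δ 16 were higher and 0 lower, beside 24.2% called higher. The medians of the 20 genes were 0.95 in WT and 0.93 in *sis2*Δ. Their summed level ran from 1346 to 1572 CPM in WT in 7.35 mM KCl and from 3514 to 3884 CPM in WT in 0.5 mM KCl. In *sis2*Δ it ran from 1714 to 1941 CPM and from 3644 to 4007 CPM, respectively. *YGP1*, a secreted glycoprotein, was at 2.59 and *GPH1*, glycogen phosphorylase, at 2.41 in WT. The markers of the other mating type also rose, by 4 of 4 in WT and 3 of 4 in *sis2*Δ, and none of them was at 0. Their sums were 45.2 to 47.7 CPM and 70.6 to 71.0 CPM in WT in the higher and the lower potassium concentration, and 50.8 to 52.5 CPM and 67.5 to 73.9 CPM in *sis2*Δ. Of the 6 markers of the strains' own mating type, 3 were higher and 0 lower in WT, and 2 were higher and 1 lower in *sis2*Δ. With 6 genes, these counts are not clearly apart from the shares of all genes. The sums of the 6 markers were 2093 to 2137 CPM and 2417 to 2972 CPM in WT, and 2134 to 2269.6 CPM and 2425 to 2605 CPM in *sis2*Δ. The part of any of these lists in the decrease of the ribosome biogenesis genes was not tested.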

How the data were processed

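Poly(A) RNA of the 12 cultures was sequenced from strand-specific libraries. The authors deposited expected counts per feature, without normalization. Fractions are present in the table, with 40.11% of the values whole to within 1e-09, and the values were rounded here. The submitters' processing notes name bcl2fastq, cutadapt 2.6, STAR 2.7.6a, featureCounts of Subread 1.6.2 and the genome build R64. The strand setting of the counting is not given in the sources used here. No library and no column of per-sample values was left out.

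Counts were filtered with filterByExpr by group and scaled with TMM in edgeR 4.0.16 (R 4.3.3, limma 3.58.1), with factors between 0.960 and 1.03. All 6691 genes of the 12 libraries entered 1 quasi-likelihood fit with 4 groups (glmQLFit and glmQLFTest), and p-values were adjusted by the Benjamini-Hochberg method over all genes, with a threshold of 0.05. SE was taken from the log2 fold change and its quasi-likelihood F (fold change over root F). CPM uses the scaled library sizes. The biological coefficient of variation was 5.70%. The chi-square per degree of freedom between replicates was 8.17 to 46.8, so that variation between cultures and not depth set the precision. Counts were simulated for 6674 genes in 0.5 against 7.35 mM KCl in WT, of which 199 were changed. The fit called 57 of 99 genes changed by 0.25 on the log2 scale and 93 of 100 changed by 0.5, with 9 false calls. In the measured comparison 1612 genes were called higher and 1553 lower, so the adjusted threshold was less strict there. The simulated shares therefore do not carry over to it.

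In the labels, batch and replicate numbers are the same, and the pairing comes from these. The deviations of 18 pairs of libraries with the same number had a median correlation of 0.0576 (-0.0996 to 0.279), and those of 36 other pairs -0.0343 (-0.227 to 0.200). The study's own model has no batch term, so the replicate block was an alternative. Others were DESeq2 1.42.0, other scalings, other filters, only the 6 libraries compared, stricter thresholds and each library left out in turn.

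Members were matched by symbol alone, whereas the lists were written from known roles with earlier results of these data known. *DBP4* of the list of other factors was not found under that symbol. Values in each library are given for the 3 highest and 3 lowest members of each contrast, for the extremes of each role group in WT, and for *NOP1*, *UTP22*, *RRP6*, *NSA2* and *NOP7*. From the lists at most 3 genes were named per contrast. Upstream sequences were read from the RefSeq copy of R64 with Python 3.11.15. Tables were made with pandas 2.3.3 and NumPy 2.4.6, and plots with matplotlib 3.10.9.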

Additional observations from a re-analysis of the deposited data

How the results depend on the processing

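No called gene changed its direction under the alternatives tried, whereas the medians of *sis2*Δ against WT in 0.5 mM KCl and of the interaction, which lay near 0, changed sign in some of them (-0.012 for the former with library totals in place of TMM, and 0.0019 for the latter without WT replicate 2 in 7.35 mM KCl). The count of genes lower in 0.5 mM KCl in WT lay between 33 and 46 with 1 library left out and that in *sis2*Δ between 41 and 51, and the single gene called higher in WT was lost without WT replicate 2 in 7.35 mM KCl (0 to 1). The medians lay between -0.28 and -0.19 in WT and between -0.34 and -0.24 in *sis2*Δ. In *sis2*Δ against WT, with 1 library left out, 1 to 5 genes were higher in 7.35 mM KCl (5 without WT replicate 3, medians 0.0025 to 0.083), and 0 to 1 were higher and 0 to 3 lower in 0.5 mM KCl (medians -0.028 to 0.032). For the interaction 0 to 2 were lower (medians -0.095 to 0.0019). The calls in 0.5 mM KCl and for the interaction arose without *sis2*Δ replicate 2 in 0.5 mM KCl, and the cause was not tested. Of the calls in WT, 32 of 43 held under all of 20 alternatives that refitted the data, and of those in *sis2*Δ 39 of 48, and all kept their sign. With an adjusted p under 0.01, 0 genes were higher in WT in 0.5 mM KCl. With a minimum absolute log2 fold change of 0.5, 2 genes were lower and 0 higher in WT, 0 lower in *sis2*Δ, and 0 higher in *sis2*Δ against WT in 7.35 mM KCl, since nearly all changes were smaller. With only the 6 libraries compared, 2 genes were higher in *sis2*Δ in 7.35 mM KCl. With the replicate block, 44 genes were lower and 1 higher in WT, 48 lower in *sis2*Δ, 1 higher in *sis2*Δ against WT in 7.35 mM KCl and 0 in 0.5 mM KCl or for the interaction, and of the calls it changed only those of *RRP6* and *RRP40* in WT. Each genotype was 1 strain, so that other differences between the strains cannot be told apart from the deletion. In the simulation, with 199 of 6674 genes changed, 3 libraries per group left changes of 0.25 on the log2 scale often uncalled. Far more genes were called in the measured comparisons of potassium, so the simulated share does not carry over to them.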
